A study of Arabidopsis thaliana with 12 samples.

Results

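A set of 29 less abundant genes of Arabidopsis thaliana was described, chosen because their array signal was higher in plants exposed to strong light than in plants grown in moderate light. The plants were wild type of the Columbia 0 ecotype, and total RNA of 12 samples was measured. In the normal light group (6 samples, titled 0 h) they had grown at 80 µE, and in the high light group (6 samples) they had been under 1000 µE for 1 h. The labels name no plants held at 80 µE through the same hour, so light and elapsed time cannot be told apart. The labels give no tissue, age or array type, and none of the 14 leaf, root, flower and guard cell marker genes looked for had a probe of its own among the named probes. Whether samples came from separate plants is not stated, so their spread may be technical.

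The genes were picked from the 3439 probes of the array in steps. Of these probes, 692 name a single gene, 662 of the 692 had a mean deposited intensity under 2 over the 12 samples, and 392 of the 662 were above 0 in every sample. The remaining 270 had at least 1 value of 0 and could not enter. Each value was divided by the median of its array, and this quotient is called the scaled intensity below, so that 1 stands for the median probe. Among the 392, the groups did not overlap and high light was higher for 37 probes, or 9.44%, and 34 of them (8.67%) also reached a ratio of group means, high over normal light, of 1.7. Over all 3439 probes these shares were 10.1% and 9.65%. From the 34, 5 genes were left out by name, and 29 stayed. Those left out were AT5G39980 (ratio 6.63), AT3G18870 (6.07), AT4G21170 (3.39), AT5G58330 (2.36) and AT3G52960 (2.17). Rankings and counts of roles below therefore hold for the 29 only. The other 4 of the 9 names that the rule leaves out failed its conditions anyway. Since these values chose the genes, ratios and separations below are descriptions and no test was run on them.

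Light beyond what photosynthesis can use drives the formation of reactive oxygen species in the chloroplast and damages photosystem II. Plants answer within minutes to hours with changes in nuclear transcripts, many of which encode proteins sent to plastids. Signals from the plastid to the nucleus, heat, sugars and photoreceptors all take part in that response. The roles given below are general knowledge of these genes and not results of the data.

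The normal light arrays had medians of 0.115 to 0.130 and 396 to 470 zeros each. Medians of the high light arrays were higher throughout, at 0.338 to 0.357, and zeros fewer, at 167 to 209. The scaling therefore sets the size of every ratio, and its part in the results is given by the alternatives below. A top value of nearly 100 was reached in 11 of the 12 columns. Whether each array was set to its own top is not stated, so deposited levels may not be comparable between arrays. In each group samples 1 and 2, 3 and 4, and 5 and 6 were more alike than other pairs on the whole (correlations across probes of 0.905 to 0.977 against 0.848 to 0.953, with normalised values under 0.05 raised to 0.05). Across probes, which are not independent replicates, limma called 543 of 3439 higher (15.8%) and 757 lower (22.0%) in high light after quantile normalisation, with a Benjamini-Hochberg adjusted p under 0.05. On deposited values the balance was the other way, with 1698 higher and 194 lower, and with columns divided by their medians 398 were higher and 912 lower. With neighbouring samples averaged, limma called 330 higher and 429 lower. The labels do not say whether neighbouring samples repeat 1 RNA, and if they do, p values over 12 samples are too small.

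The ratio of group means ran from 1.73 to 6.01 over the 29 genes, with a median of 2.56. It was at least 3 for 9 genes, between 2 and 3 for 15 and under 2 for 5. The 3 largest ratios rest on low deposited intensities in normal light. Group means there were 0.0724 (AT4G17260), 0.0775 (AT3G11150) and 0.0503 (AT3G49740), on arrays with medians of 0.115 to 0.130. The part of low signal in the size of the ratios was not tested. As a log2 ratio the median of the genes was 1.36, against -0.39 over the 392 probes they were picked from. Over the 2233 probes of any kind above 0 in all samples it was -0.54. After this scaling the opposite pattern was more frequent among the same 392 probes, of which 98 were lower in high light without overlap, 91 of them by the same factor or more (over all 3439 probes 21.2% were lower without overlap). On deposited values the balance turned, with 192 of the 392 higher and 12 lower without overlap (over all 3439 probes 44.0% were higher without overlap).

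**Figure D1:**
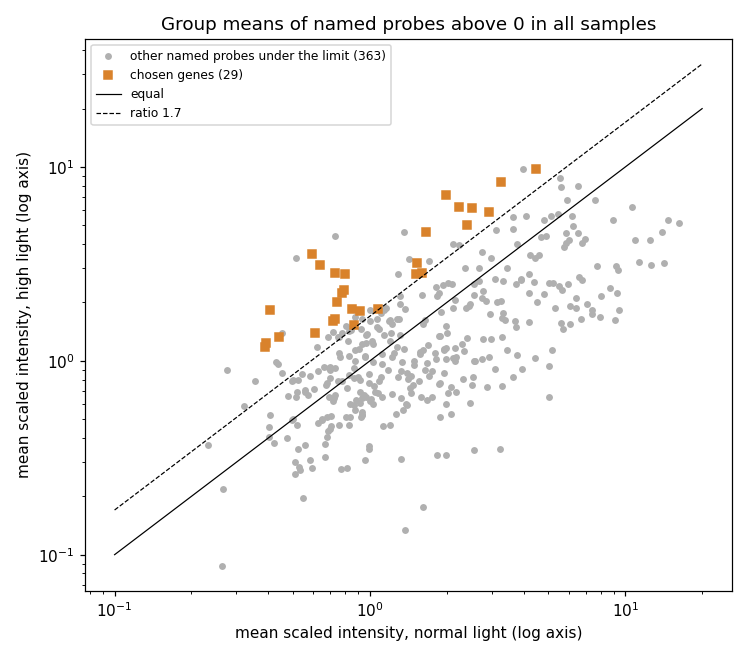
Mean scaled intensity in normal light (x, log axis) and in high light (y, log axis) for the 392 named probes with a mean under 2 and no zero; squares are the 29 chosen genes, the solid line marks equal means and the dashed line a ratio of 1.7. The 29 squares lie on the upper edge of the cloud, at ratios of 1.73 to 6.01, and circles above the dashed line are probes whose groups overlap or genes left out by name.

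Enzymes and transporters of small molecules made up 10 of the 29, with ratios of 1.76 to 6.01. AT4G17260 encodes a lactate dehydrogenase, which turns pyruvate into lactate and regenerates NAD+ when oxygen is short. Its scaled intensities in samples 1 to 6 were 0.387, 1.36, 0.558, 0.378, 0.700 and 0.162 in normal light and 3.60, 2.91, 4.39, 3.15, 3.61 and 3.67 in high light. Means went from 0.591 ± 0.419 to 3.55 ± 0.510 (SD, n = 6 each), a ratio of 6.01 and the highest of the 29. The lowest high light value was 2.13 times the highest normal light value. In normal light 5 of 6 samples lay under their array's median probe, and in high light all lay far above it.

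Of the 9 lactate and malate dehydrogenase genes looked for, AT4G17260 and AT5G58330 had a probe of their own. AT5G58330, the plastid NADP-dependent malate dehydrogenase, exports reducing power from the chloroplast. It met every condition of the rule on these samples and was left out of the set only by name. The p values given for it are therefore no independent test. Normal light samples had a deposited intensity of 0.177 ± 0.0497, and high light samples one of 1.16 ± 0.127 (SD, n = 6). Its ratio after median scaling was 2.36. In the limma fit over all 3439 quantile-normalised probes its log2 change was 1.55 (SE 0.169, adjusted p = 3.9e-05), and with neighbouring samples averaged the adjusted p was 0.014.

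AT-HF (AT4G26900, also HISN4) encodes the imidazole glycerol phosphate synthase of histidine synthesis, a pathway of the plastid. Its values were 0.428, 0.699, 0.0387, 1.21, 1.51 and 0.507 in normal light and 3.18, 3.12, 3.29, 3.01, 2.62 and 1.79 in high light. The means of 0.732 ± 0.540 and 2.83 ± 0.563 (SD, n = 6) gave a ratio of 3.87. Normal light sample 3 and high light sample 6 lay well below the others of their groups. None of the other 10 histidine synthesis genes looked for had a probe of its own, so the rest of that pathway was not seen here.

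THIC (AT2G29630) makes the pyrimidine part of thiamine, the cofactor of many dehydrogenases and of transketolase, and its transcript carries a riboswitch that senses the product. In normal light THIC read 2.29, 1.95, 1.10, 1.19, 1.79 and 1.31, and in high light 2.69, 2.39, 2.74, 3.005, 3.12 and 3.01. The means were 1.60 ± 0.478 and 2.83 ± 0.272 (SD, n = 6), a ratio of 1.76. The groups almost touched, at 2.29 and 2.39.

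AT2G32040 encodes a folate transporter of the plastid envelope. Its scaled intensity was 0.330 to 1.04 in normal light (median 0.743) and 1.10 to 1.91 in high light (median 1.69), a ratio of 2.24 with groups only a factor of 1.05 apart. AT5G63290 encodes a radical SAM protein related to the bacterial oxygen-independent coproporphyrinogen oxidase HemN. It lay at 1.20 to 1.98 (median 1.46) and 2.16 to 3.23 (median 2.82), a ratio of 1.86. AT1G02020, of the nitroreductase family of flavin enzymes, lay at 1.98 to 3.63 (median 3.05) and 4.82 to 7.08 (median 5.91). Its ratio was 2.01, with a clear gap between the groups.

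AT3G11150 belongs to the oxygenases that use iron and 2-oxoglutarate, many of which modify hormones and secondary metabolites. It read 1.48, 0.408, 0.345, 0.341, 0.334 and 0.899 in normal light and 3.03, 2.89, 3.93, 3.70, 2.79 and 2.32 in high light. The ratio was 4.89 (0.635 ± 0.470 against 3.11 ± 0.601, SD, n = 6), and it was 6.68 without normal light sample 1. AT3G50270, of the acyltransferase family that carries the HXXXD motif, read 1.06, 0.797, 0.886, 0.0228, 0.691 and 0.999 and then 1.66, 1.81, 1.85, 1.88, 2.47 and 2.37, a ratio of 2.70. Apart from the very low normal light sample 4, its 5 normal light values were close together.

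AT1G30700 is a berberine bridge enzyme-like flavin oxidase, a family that includes enzymes oxidising sugars and cell wall precursors. Its range was 1.40 to 3.70 (median 2.41) in normal light and 3.88 to 5.88 (median 5.47) in high light, a ratio of 2.11. AT1G73740 encodes a glycosyltransferase that resembles bacterial MurG of peptidoglycan synthesis. Its range went from 0.348 to 1.52 (median 0.759) to 1.91 to 2.58 (median 2.38), a ratio of 2.92.

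Hydrolases and lyases acting on walls, proteins and lipids were 4 of the 29. AT4G18180 has a pectin lyase-like fold, as enzymes that cut wall pectin do. It read 1.08, 1.497, 1.501, 1.54, 2.79 and 3.47 in normal light and 5.55, 5.86, 7.82, 7.92, 7.43 and 8.28 in high light, with means of 1.98 ± 0.931 and 7.14 ± 1.15 (SD, n = 6) and a ratio of 3.60. Samples with neighbouring numbers were close in both groups, and even the highest normal light sample stayed well under every high light sample.

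AT2G03200 encodes a protease of the aspartyl type. It read 0.924, 0.131, 1.91, 2.31, 2.001 and 1.86 and then 2.78, 2.73, 3.66, 3.81, 3.14 and 3.07, a ratio of 2.10, with normal light samples 1 and 2 below the others. AT3G61540, of the alpha/beta-hydrolase fold, had 0.544 to 1.44 (median 0.903) in normal light and 1.60 to 1.93 (median 1.89) in high light, a ratio of 1.98. AT5G11650, also of that fold and related to monoacylglycerol lipases, had 0.410 to 1.53 (median 1.19) and 1.59 to 2.10 (median 1.91). Its ratio of 1.73 was the lowest of the 29.

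Genes for proteins that act on RNA or on gene expression were 5 of the 29, with ratios of 2.30 to 4.49. AT3G49740 encodes a pentatricopeptide repeat protein, a family that binds organelle transcripts and takes part in their editing, splicing and stability. It read 0.391, 0.519, 0.314, 0.530, 0.244 and 0.450 in normal light and 2.27, 2.50, 2.37, 2.27, 0.745 and 0.825 in high light, a ratio of 4.49 (0.408 ± 0.114 against 1.83 ± 0.815, SD, n = 6). High light samples 5 and 6 averaged 0.785, where samples 1 and 2 averaged 2.38 and samples 3 and 4 averaged 2.32. It was the only 1 of the 29 with a larger relative spread in high light than in normal light.

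AT1G62150 and AT1G61990 both encode proteins of the mitochondrial transcription termination factor (mTERF) family, whose members act on organelle DNA and RNA. In the RefSeq gene order 14 protein-coding genes lie between them. AT1G62150 read 1.39, 1.97, 1.82, 1.33, 1.45 and 1.95 in normal light and 3.89, 3.73, 4.74, 4.77, 5.31 and 5.26 in high light, means of 1.65 ± 0.294 and 4.62 ± 0.673 (SD, n = 6) and a ratio of 2.80. AT1G61990 read 0.255, 0.689, 0.135, 0.613, 1.08 and 0.874 and then 1.24, 1.25, 1.58, 1.53, 1.60 and 1.15, a ratio of 2.30. The groups of AT1G62150 were wide apart, and those of AT1G61990 nearly met.

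AT4G21770 encodes a pseudouridine synthase, which isomerises uridine in RNA. Its scaled intensity was 0.210 to 1.39 (median 0.845) in normal light and 2.12 to 3.24 (median 2.88) in high light, a ratio of 3.49. AT2G25640 carries a SPOC domain and resembles transcription elongation factor S-II. It had 0.178 to 0.850 (median 0.343) and 1.12 to 1.41 (median 1.20), a ratio of 3.15, with tightly grouped high light samples.

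AT4G24930, a protein of the thylakoid lumen, was the gene of the set placed in that compartment. It read 0.925, 1.19, 0.900, 1.35, 0.376 and 0.386 in normal light and 1.80, 1.92, 1.81, 1.83, 1.98 and 1.72 in high light, a ratio of 2.16. Its high light samples had a coefficient of variation (CV, SD over mean) of 5.05%, the smallest of the 29, against 47.1% in normal light, where samples 5 and 6 were low.

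For the remaining 9 genes no role is given here. AT3G54680 had scaled intensities of 0.0473 to 0.803 (median 0.436) in normal light and 0.987 to 1.61 (median 1.34) in high light, a ratio of 3.03. AT4G27510 had 0.149 to 0.592 (median 0.370) and 0.900 to 1.495 (median 1.15), a ratio of 3.02. These are 2 of the 5 genes with every normal light sample under the median of its array. AT1G71910, another of them, had 0.573 to 0.942 (median 0.795) and 2.06 to 2.44 (median 2.22). Its ratio was 2.87, its CVs were 16.8% and 5.77%, and its lowest high light value was 2.19 times its highest normal light value, the widest gap of the 29.

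AT1G76220 went from 1.13 to 3.61 (median 2.20) to 5.72 to 7.06 (median 6.07), a ratio of 2.78. AT2G36480 went from 2.37 to 4.66 (median 3.11) to 6.79 to 10.4 (median 8.16), a ratio of 2.56. AT5G46560 went from 1.45 to 3.78 (median 2.40) to 5.55 to 6.85 (median 5.95), a ratio of 2.43. All of their samples lay above the median of the array in both groups.

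AT3G06870 read 7.45, 4.35, 5.11, 6.11, 2.73 and 1.07 in normal light and 10.8, 9.84, 8.83, 9.15, 11.8 and 8.27 in high light, a ratio of 2.19. Its deposited mean over the 12 samples, 1.98, is the one nearest to the limit of 2. AT1G64430 had 0.331 to 1.22 (median 0.714) and 1.40 to 1.99 (median 1.65), a ratio of 2.25. AT4G17440 had 0.574 to 1.07 (median 0.934) and 1.08 to 1.95 (median 1.53), a ratio of 1.77. For AT4G17440 the lowest high light sample exceeded the highest normal light sample by a factor of 1.01, the narrowest gap of the 29.

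**Figure D2:**
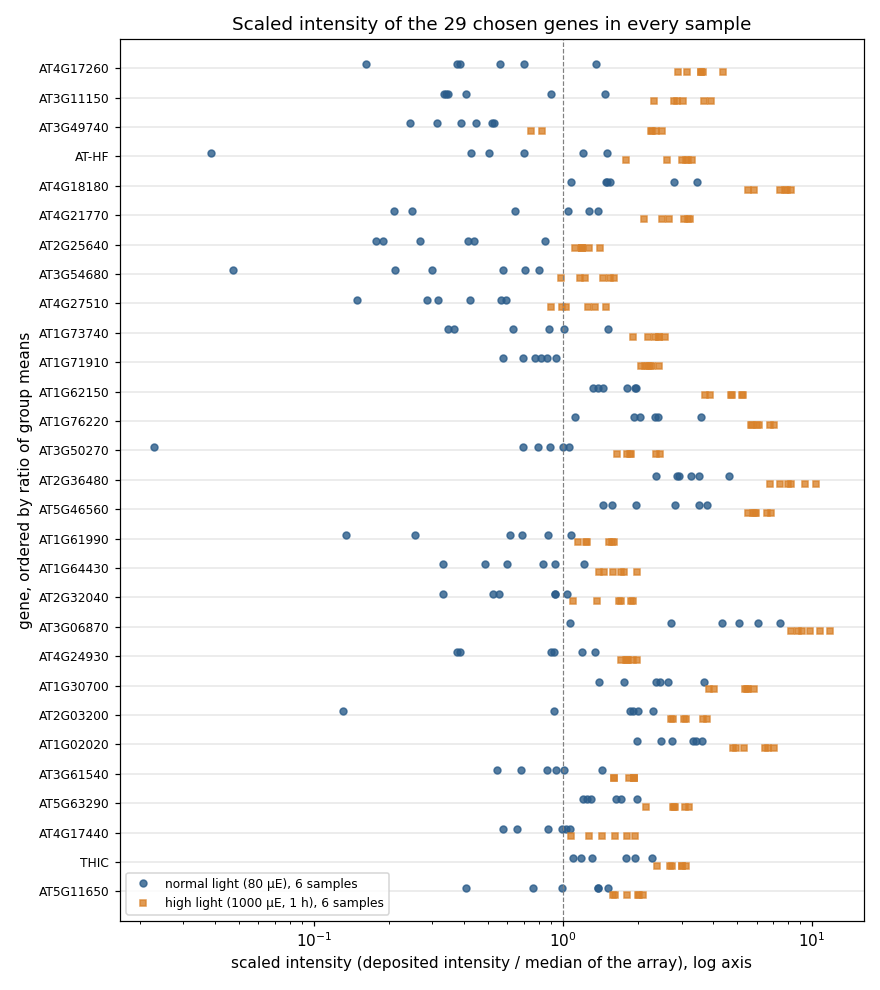
Scaled intensity (deposited intensity over the median of the array, log axis) of the 29 genes in 6 normal light samples (circles) and 6 high light samples (squares); the dashed line is the median probe, and genes are ordered by the ratio of group means. For every gene the squares lie to the right of all circles, by a factor of 1.01 for AT4G17440 and 2.19 for AT1G71910, and single circles far to the left belong to AT-HF, AT3G54680, AT3G50270 and AT2G03200.

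The edges of the rule were not marked by a break in the values. Just inside the ratio of 1.7 were AT5G11650 (1.73), THIC (1.76) and AT4G17440 (1.77), and just outside, with separate groups, were AT5G38310 (1.698), OSB1 (1.64), which encodes an organellar single-stranded DNA-binding protein, and the calmodulin-like gene CML30 (1.57). A further 22 of the 392 probes reached 1.7 with overlapping groups, among them AT5G01860 at 3.24, AT2G36560 at 3.08 and AT4G32060, also left out by name, at 2.46. On the side of the brightness limit only AT4G35660, at a mean of 2.22 and a ratio of 17.0, met all other conditions.

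The place of a gene among the probes of its own array does not depend on a scaling factor. A rise in place was still largely fixed by the choice of genes with higher scaled values in high light. A place also depends on all other probes of the array, and zeros were fewer in high light. Averaged over samples, the genes stood at the 27.5th to 78.4th percentile in normal light (median over genes 44.1) and at the 54.8th to 95.9th in high light (median 81.4). The gain was 16.4 to 51.8 percentile points, with AT4G17260 moving from 34.6 to 86.3 and AT3G11150 from 35.6 to 83.5. The genes thus started on both sides of the middle of the array. In normal light 17 of the 29 had a mean under the median probe, while in high light 26 of the 29 were above it in all 6 samples. AT2G25640 and AT1G71910 were below it in all normal light samples and above it in all high light samples.

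The size of the log2 ratios moved with the scaling. Their sign and the separation of the groups were fixed by the choice on median-scaled values and are no sign of stability, since the 75th percentile and the deposited scale raise the log2 ratio of all 29 genes. After quantile normalisation, where 14.5% of all probes were higher in high light without overlap, the 29 genes had log2 ratios of 0.83 to 2.67 with a median of 1.57. With cyclic loess the median was 1.74, and with columns divided by their 75th percentile 1.703. On deposited values, where 44.0% of all probes were higher without overlap, it was 2.84, and intensities of the genes were 4.90 to 17.1 times as high in high light. Over the 2233 probes above 0 the corresponding medians were -0.27, -0.16, -0.20 and 0.94. The median scaling used for the choice gave the lowest of these medians, and 8 genes had a lower log2 ratio after quantile normalisation and 3 with cyclic loess.

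**Figure D3:**
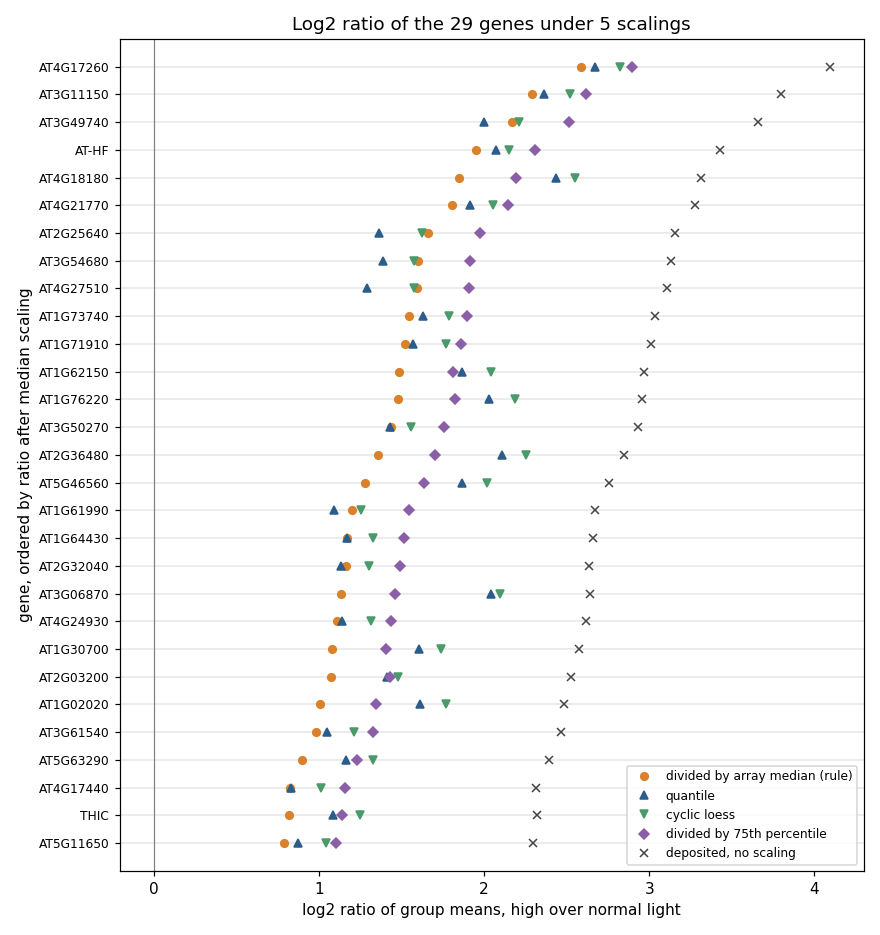
Log2 ratio of group means, high over normal light, for each of the 29 genes under 5 scalings (symbols); the grey line marks 0. All symbols lie to the right of 0, the deposited values farthest, with medians over genes of 1.36 (array median), 1.57 (quantile), 1.74 (cyclic loess), 1.703 (75th percentile) and 2.84 (no scaling).

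The spread between samples differed between the groups. For 28 of the 29 genes the CV of the scaled intensity was larger in normal light, with a median over genes of 44.2% there against 14.4% in high light. That direction also held for 324 of all 392 named probes under the brightness limit and above 0, whose median CVs were 37.3% and 18.6%, so it is not particular to the 29 genes. Deposited intensities in normal light were low, down to group means of 0.0474 for AT4G27510 and 0.0481 for AT2G25640. The part of low signal in the spread was not tested.

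**Figure D4:**
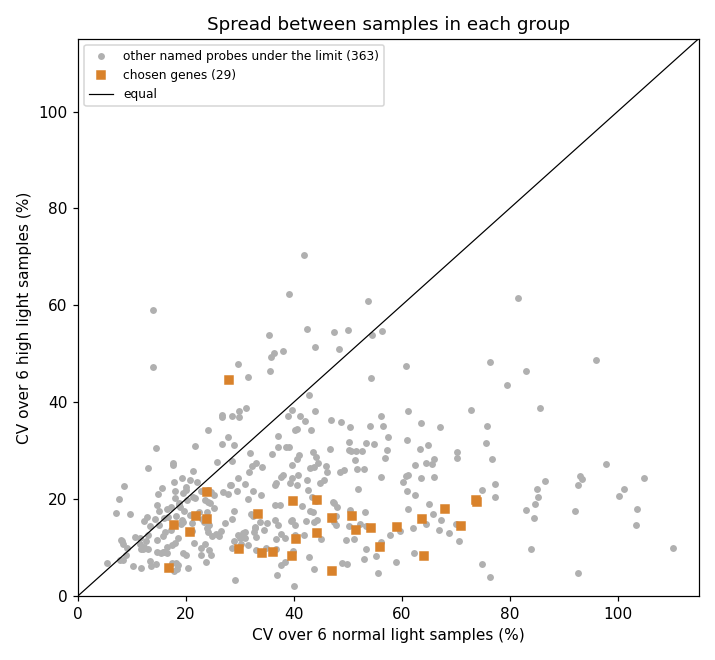
CV of the scaled intensity over the 6 samples of each group, in percent, normal light on x and high light on y, for the 29 genes (squares) and the other 363 named probes under the limit and above 0 (circles); the line marks equal spread. Of the squares 28 lie under the line, and the square above it is AT3G49740, at 28.0% and 44.5%.

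Within a group, samples with neighbouring numbers often read alike for these genes. In high light the share of a gene's variation (sum of squares of log2 values) that lay between the pairs 1 and 2, 3 and 4, and 5 and 6 had a median of 75.7% over the 29 genes, and it exceeded 80% for 11 of them. Samples with no likeness of pairs would average 40.0%. The highest shares were those of AT3G49740 (99.3%), AT1G62150 (99.2%) and AT2G03200 (98.7%). Over the 392 named probes the median share was 62.8% in high light, and 102 exceeded 80%. In normal light it was 58.0% for the genes and 57.9% for the 392 probes, with 5 of the 29 and 101 of the 392 over 80%. Whether the genes differ from the other probes in this was not tested. The genes did not vary as a block between the samples of a group. Over the 406 pairs of genes, the correlation of log2 values across the 6 samples had a median of -0.037 in normal light and 0.0089 in high light, running from below -0.95 to above 0.97 in both, as a description over few points that share arrays.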

How the data were processed

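The deposited table holds intensities per probe on a linear scale from 0 to 100, and 11 of the 12 columns reach the highest value. No source used here says how the authors made these intensities, and the number of arrays limits the precision. Groups and sample numbers came from the titles. Probes were named through the platform annotation: 692 have 1 gene, 870 several and 1877 are not listed, and 690 of the 692 matched the RefSeq gene table of the TAIR10.1 assembly, all 29 chosen genes among them. No coordinates are given, because no build is stated for the array.

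Each column was divided by its median over all 3439 probes, and the rule stated in the report was applied with Python 3.11.15, numpy 2.4.6 and pandas 2.3.3. For all probes, values were quantile-normalised, zeros set to the lowest positive value (9.02e-06), and log2 values fitted in R 4.3.3 with limma 3.58.1 (moderated statistics, 2-sided, Benjamini-Hochberg). The members, gene lists and role groups were chosen with earlier results of these data known. Every chosen gene is named, with its values. Of 7 gene lists with 42 genes, those for light stress, leaf, root, flower and guard cells had no gene with a probe of its own. Families by product name and promoter motifs were planned but not analysed here. Alternatives are given in the closing section. Same-numbered samples of the groups were checked for pairing and not treated as pairs.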

Additional observations from a re-analysis of the deposited data

Results flagged for a closer look

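Each gene was screened in each group for a sample lying apart in log2 scaled intensity, by its distance to the next sample as a share of the group's range (the gap). Such a sample was found 5 times in 58 screens, and chance flags about 1 in 20 when samples are independent. Neighbouring samples read alike here, and the rule limited how far a sample could lie toward the other group. The chance rate is therefore only a rough guide. AT3G50270 in normal light sample 4 was at 0.0228 against 0.691 to 1.06 in the others (gap 0.889). AT2G03200 in normal light sample 2 was at 0.131 against 0.924 to 2.31 (gap 0.680). AT-HF was low in normal light sample 3, at 0.0387 against 0.428 to 1.51 (gap 0.656), and in high light sample 6, at 1.79 against 2.62 to 3.29 (gap 0.627). AT5G63290 in high light sample 5 was at 2.16 against 2.78 to 3.23 (gap 0.628). Each of the 5 samples was below the others of its group, and they were 5 different samples.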

How the results depend on the processing

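The choice of the 29 genes depended on the scaling. The same rule gave 45 genes after quantile normalisation, 54 with cyclic loess, 51 with columns divided by their 75th percentile and 180 on deposited values, each time with all 29 among them. It gave 44 with neighbouring samples averaged, 68 with zeros allowed and, chosen after seeing the data, 59 by place among the probes of each array with no ratio threshold. Of these, averaging and allowing zeros loosen the rule by construction. Leaving out 1 sample gave 28 to 37 genes, of which 25 to 29 were among the 29. The genes that dropped out were THIC, AT4G17440 and AT5G11650, whose ratio then lay at 1.54 to 1.699, and AT3G06870, whose mean passed the limit of 2 without any 1 of the normal light samples. The median log2 ratio of 1.36 became 1.57 (quantile), 1.74 (cyclic loess), 1.703 (75th percentile) and 2.84 (deposited), and lay at 1.29 to 1.43 without 1 sample. The sign of the single genes was fixed by how they were chosen, and the farthest move of a ratio without 1 sample was by a factor of 1.36 (AT3G11150). Probes called higher by limma, 543, became 1698 on deposited values and 330 with neighbouring samples averaged, with 479 to 574 without 1 sample. With an offset added before log2, 653 were called higher and 829 lower. Without the dimmest 25% of probes, 515 of 2579 were called higher and 733 lower. AT5G58330, which met the rule on the same samples, kept its limma call over the settings of the fit. Its log2 changes were 1.27 to 2.76, with an adjusted p of at most 0.014, which is no independent test. Beyond these settings the cause was not tested.

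Same-numbered samples of the groups were little alike: correlations of their deviations ran from -0.0063 to 0.065, and for 4 of 12 samples the best match had the same number. Weak likeness cannot show whether the samples were paired by design, and the sample numbers alone do not say. With the replicate block limma called 490 probes higher. Pairing by number gave the 29 genes a median log2 ratio of 1.31, against 1.36 from ratios of group means. These are different summaries of the same values, so the gap is no effect of pairing.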
